A study of Mus musculus with 3 samples.

Results

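Secreted cytokines were examined in the mouse hepatoma line Hepa1c1c7 after transfection with an expression vector. The 10 genes were Il6, Il24, Il11, Lif, Csf1, Tnf, Il1a, Il1b, Il18 and Il15, out of 22911 genes with a symbol on the array. They were listed by name and partly selected on their log2 differences between these same arrays, so the differences given here are a description of 3 RNA samples and were not tested. The samples were cells that received an empty vector of the pCMV6 type, a vector for Mst1r (a receptor tyrosine kinase whose ligand is macrophage-stimulating protein) or a vector for Slpi (a secreted protease inhibitor). Each group held 1 array, and the cells came from a single line, so no difference has a replicate check within these arrays. Because RNA was taken from the whole culture, more cells with a transcript and more transcript per cell cannot be told apart. The 10 genes were measured by 17 probes, and each probe lay on 1 spot of each array. All 3 arrays showed 13 of the 17 probes well above background, 3 probes were above it on none, and 8 of the 10 genes had at least 1 probe that was well above background on all arrays.

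Interleukin-6, interleukin-11 and leukemia inhibitory factor (Lif) belong to one cytokine family, whose receptors share the signalling chain gp130 (Il6st). They activate JAK kinases and the transcription factor STAT3, and in hepatocytes IL-6 is known as the main inducer of acute phase proteins. Interleukin-24 belongs to the IL-10 family and acts through the receptor chains Il20ra, Il20rb and Il22ra1. Tnf and the IL-1 group (Il1a, Il1b, Il18) are inflammatory cytokines that signal to NF-kB, Csf1 is the growth factor of macrophages, and Il15 supports natural killer and T cells. Transcription of Il6 is known to be controlled by NF-kB, AP-1 and C/EBP factors in many cell types.

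The arrays gave no check of the transfected Mst1r gene, since its probe stayed at background on every array (processed signals of 4.15, 4.08 and 3.70 for empty, Mst1r and Slpi vector). The brighter Slpi probe gave 6459, 3843 and 6680 in that order, and its log2 difference between Slpi vector and empty vector was 0.13. The dimmer Slpi probe, in row 380, gave 106, 91.7 and 85.8, with a log2 difference of -0.23. Where these probes lie relative to the inserts of the vectors is not given in the sources used here. The names of the arrays below are therefore those of the labels. The paper selected Il33 from microarrays of transfected Hepa1c1c7 cells, among other criteria. It then reports by real-time PCR that Mst1r was overexpressed and Il33 raised in these cells, and those PCR values lie outside these arrays. Each array had between 46.7% and 48.5% of its 56605 probes well above background. Alb, Afp, Krt8, Krt18 and Trf, markers of hepatocytes and hepatomas, were well above background on all arrays, whereas Apob was dark on all of them. Apoa1 of that list exceeded background with Slpi vector alone (4.83, 9.64 and 43.0 for empty, Mst1r and Slpi vector), and Ttr did so with both vectors but not with empty vector (9.60, 26.4 and 22.9). Of the markers of other cells, Ptprc, Adgre1 and Tyrobp (leukocytes) and Cdh5, Kdr and Tek (endothelium) were not above background on any array, whereas Pecam1 of the endothelial list had 35.9, 32.1 and 24.1 and was well above it on all. Itgam, Cd14 and Cd3e of the leukocyte list and Col1a1, Pdgfrb and Acta2 of the stellate list each had a probe well above background on all arrays. None of these 6 differed 2-fold between arrays by its brightest probe, whereas Des of the stellate list had 227, 37.9 and 58.2 for empty, Mst1r and Slpi vector (row 55). The part of such cells in the cytokine values was not tested.

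Signal in the upper rows of the arrays needs to be given beside these values. The upper rows are here those from the first row to the row of the dimmer Il15 probe, and the lower rows are all others. Control spots of the upper rows that should be dark exceeded a processed signal of 50 in 2.68% of cases for empty vector, 4.01% for Mst1r vector and 2.82% for Slpi vector. In the lower rows this was seen on 0 of 1754, 2 of 1731 and 1 of 1731 such spots. Of the 17 cytokine probes, 6 lay in the upper rows and 11 in the lower rows. The row of each probe is given with its values. The errors after a log2 difference are spot errors, which combine over both arrays the SD between repeated spots of probes with a like signal. They do not cover variation between cultures. The repeated probes include control probes in all rows, so stray signal on those spots is part of the SD. Stray signal on a given cytokine spot is not measured by them. Signals of different probes are not ranked against each other as transcript levels, since probes differ in how strongly they bind.

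Il6 was the member with the largest difference between Mst1r vector and empty vector. Its probe in row 286 read 114 (processed signal) with empty vector, 101 with Slpi vector and 543 with Mst1r vector. A second Il6 probe in row 62 gave 57.1, 48.8 and 300.9 in that order. On both probes the Mst1r vector array alone was high, and the other arrays lay close together. After 75th percentile scaling, Mst1r vector exceeded empty vector on the log2 scale by 2.48 ± 0.205 (5.59-fold) in row 286 and 2.63 ± 0.338 (6.19-fold) in row 62. Against Slpi vector, the log2 differences were 2.58 ± 0.205 and 2.78 ± 0.338. Between Slpi vector and empty vector they were -0.09 ± 0.244 and -0.15 ± 0.452, which is within the spot error for both probes. No dark spot around either Il6 probe carried stray signal on any array.

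Among 11660 genes that were well above background on all arrays and over a signal of 50 in this comparison, Il6 ranked 30 from the highest for Mst1r vector against empty vector. In the comparison with Slpi vector it ranked 14 of 11593. The genes whose pair of differences from empty vector was nearest to that of Il6, among 12457 genes, were Gm4340, Aff3, Cd209d, Cep85l and Hspa12a. Their distances from Il6 on the log2 scale ran from 0.043 for Gm4340 to 0.226 for Hspa12a. This likeness was over 3 arrays, and Aff3, Cd209d and Hspa12a had their probes in rows 3, 105 and 4.

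The promoters of Il6 and of the family member Lif, whose signal stayed near its empty vector level, are shown with that of Csf1, the member that was lower with Mst1r vector on every probe. Each is the stretch of 250 bases before the transcription start from RefSeq (GRCm38.p6), 5′ to 3′ on the strand of the gene, with matches to AP-1 or NF-kB motifs in capitals.
Il6, chr5:30012864-30013113, plus strand: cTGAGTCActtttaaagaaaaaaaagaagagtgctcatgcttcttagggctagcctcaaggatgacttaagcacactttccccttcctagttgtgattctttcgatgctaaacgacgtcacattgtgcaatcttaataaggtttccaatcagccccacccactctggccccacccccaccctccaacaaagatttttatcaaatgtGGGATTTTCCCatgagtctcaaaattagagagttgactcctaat
Lif, chr11:4257318-4257567, plus strand: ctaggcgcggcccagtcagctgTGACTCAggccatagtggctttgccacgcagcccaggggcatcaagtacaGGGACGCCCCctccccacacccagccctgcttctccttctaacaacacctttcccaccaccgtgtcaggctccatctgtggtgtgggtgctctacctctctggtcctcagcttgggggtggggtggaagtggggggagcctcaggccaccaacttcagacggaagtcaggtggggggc
Csf1, chr3:107760470-107760719, minus strand: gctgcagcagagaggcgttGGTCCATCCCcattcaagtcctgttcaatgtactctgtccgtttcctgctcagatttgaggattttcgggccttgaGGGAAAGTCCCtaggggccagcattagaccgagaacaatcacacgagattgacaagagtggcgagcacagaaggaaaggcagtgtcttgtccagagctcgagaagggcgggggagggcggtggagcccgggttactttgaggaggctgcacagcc
The motifs searched on both strands were TGANTCA for AP-1, TGACGTCA for the cyclic AMP response element, and for NF-kB either GGGA and CC separated by any 4 bases or GGG and TCCC separated by any 3 bases. A match to AP-1 was found in 6.75%, to NF-kB in 17.6% and to the cyclic AMP element in 1.55% of 32851 promoter windows of this length. The Il6 window held an AP-1 match from 249 to 243 bases before the start and overlapping NF-kB matches between 44 and 34 bases before it. The Lif window also held both motifs, at 228 to 222 bases for AP-1 and 178 to 169 bases for NF-kB. The Csf1 window held NF-kB matches at 231 to 222 and 155 to 145 bases before the start and no AP-1 match. Of the 8 members in the promoter table, 4 held an AP-1 match in a window and 3 an NF-kB match. None held an exact match to the cyclic AMP motif, and sites that differ from the searched letters were not looked for. The other AP-1 matches were in Il11 and Il1a, and the windows of Tnf, Il1b and Il18 held no match. Il24 and Il15 were not in the table.

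**Figure D1:**
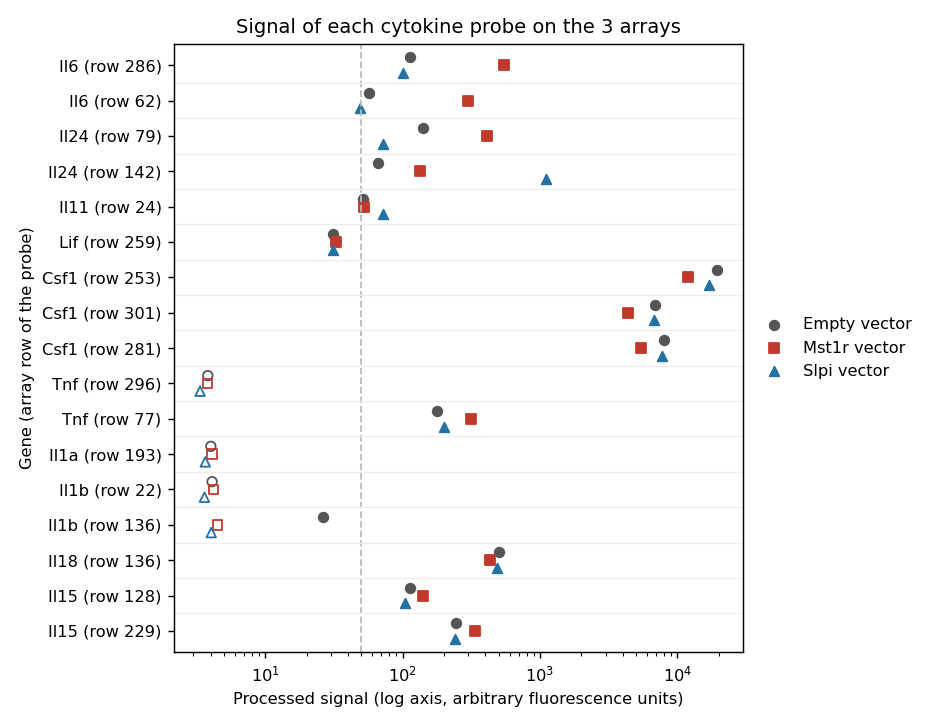
Processed signal (log axis) of the 17 probes of the 10 cytokine genes on the empty vector (circles), Mst1r vector (squares) and Slpi vector (triangles) arrays, with the array row of each probe. Open symbols were not well above background, and the dashed line is the signal minimum of 50. Both Il6 probes stand out on the Mst1r vector array, and the Il24 probe in row 142 stands out on the Slpi vector array with a signal of 1107.

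Il24 was measured by a pair of probes with the same transcript accession (NM_053095), and they gave different orders of the arrays. Where these probes lie in the transcript is not given in the sources used here, and the same holds for the other probe pairs described below. The probe in row 79 had a processed signal of 141 for empty vector, 413 for Mst1r vector and 72.0 for Slpi vector. The probe in row 142 had 66.1, 134 and 1107. On the former the Mst1r vector array was highest and the Slpi vector array lowest, whereas on the latter the Slpi vector array was far above both others. All 6 values were well above background.

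Both Il24 probes were higher with Mst1r vector than with empty vector. The log2 difference was 1.78 ± 0.205 (3.43-fold) in row 79 and 1.25 ± 0.244 (2.38-fold) in row 142, and after normexp background correction the latter was 0.71. Between Slpi vector and empty vector, the probes pointed in opposite directions. The difference was -0.89 ± 0.244 (1.86-fold lower) in row 79 and 4.14 ± 0.192 (17.7-fold higher) in row 142. Mst1r vector was accordingly 6.37-fold higher than Slpi vector by the probe in row 79 and 7.42-fold lower by the probe in row 142. A direction for Il24 with Slpi vector is therefore not given.

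The disagreement of the Il24 probes was set beside that of other genes. On these arrays, 3998 genes had more than 1 probe that was well above background on all arrays and over the signal minimum. The gap between the differences of Il24's probes was 5.04 (log2) for Slpi vector against empty vector, compared with a median gap of 0.135 and a 95th percentile of 0.571, and no other gene had a gap of this size. For Mst1r vector against empty vector the Il24 gap was 0.52, and 293 genes (7.33%) had a gap at least as large. Il6, Csf1 and Il15 had gaps between 0.14 and 0.15 in that comparison, near the median of 0.128. Between Slpi vector and empty vector, Il24 and Tcf4 were the 2 genes with one probe at least 2-fold higher and another lower by 0.5 or more on the log2 scale.

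The surroundings of the Il24 spots differed. Around the spot in row 142, there were 6, 5 and 4 dark spots on the empty vector, Mst1r vector and Slpi vector arrays. None of them carried stray signal. Detected neighbours of that spot differed between Slpi vector and empty vector by -0.06 to 0.11 (log2, n = 6 spots), and the local background was 22, 22 and 24 on the empty vector, Mst1r vector and Slpi vector arrays. Around the spot in row 79, 3 of 11 dark spots exceeded 50 on the empty vector array, 0 of 8 on the Mst1r vector array and 0 of 9 on the Slpi vector array. The detected neighbours of that spot differed between Slpi vector and empty vector by -2.41 and 0.03 (n = 2 spots). The part of stray signal in the value of 141 on the empty vector array was not tested. The probe in row 142 ranked 2 from the highest for Slpi vector against empty vector. This was among 11597 genes well above background on all arrays and over a signal of 50. That probe represents Il24 through its Slpi vector signal, and the gene was listed with these differences in view, so nothing is read from the rank.

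**Figure D2:**
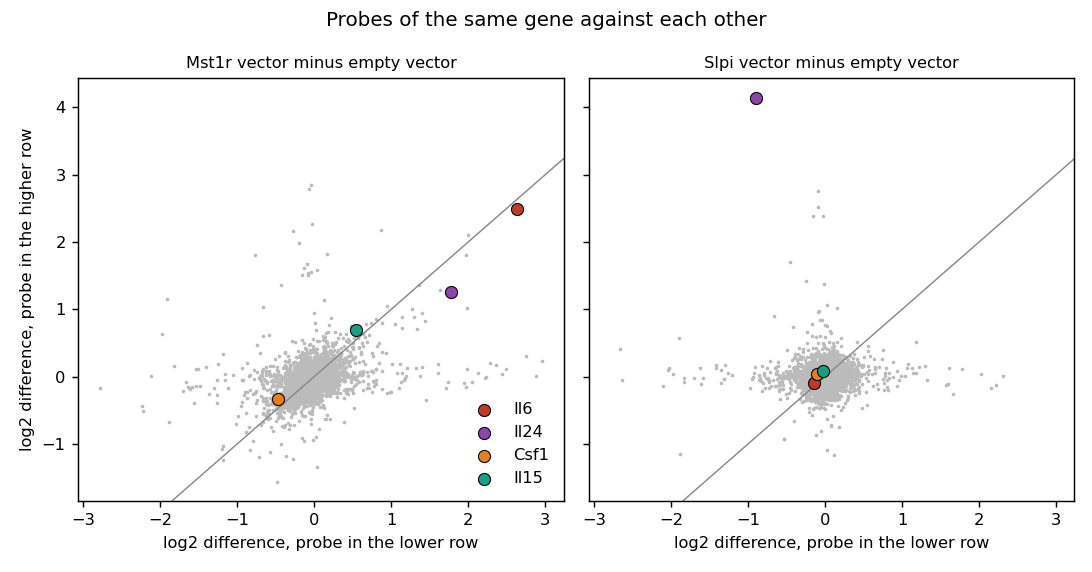
log2 difference of one probe (horizontal) against another probe (vertical) of the same gene, for 3998 genes with more than 1 detected probe (the first 2 by array row), in each comparison with empty vector. The line marks equal differences. Il6, Il15 and Csf1 lie near the line in both panels, whereas Il24 lies far from it in the Slpi vector panel, at -0.89 and 4.14.

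The other members of the IL-6 family were dim and differed little between arrays. Il11, which acts on stromal and epithelial cells, had processed signals of 51.4, 52.6 and 72.1 on the empty vector, Mst1r vector and Slpi vector arrays (row 24). The Slpi vector array was highest, with a log2 difference of 0.57 ± 0.363 from empty vector, and 1 of 8 dark spots around the Il11 spot on that array carried stray signal. Lif, a regulator of differentiation, had 31.0, 32.5 and 31.3 (row 259), which is below the signal minimum on all arrays. Its difference from empty vector was 0.30 ± 0.577 with Mst1r vector and 0.09 ± 0.679 with Slpi vector, both within the spot error.

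Csf1 gave a high signal on each of its 3 probes, far over the signal minimum. The probe in row 253 gave 19393 for empty vector, 11911 for Mst1r vector and 17080 for Slpi vector. The probes in rows 281 and 301 gave 7971, 5395 and 7778, and 6838, 4379 and 6753, respectively. The Mst1r vector array was lowest on all 3 probes. On the log2 scale, Mst1r vector differed from empty vector by -0.47 ± 0.113 in row 253, -0.33 ± 0.138 in row 281 and -0.41 ± 0.138 in row 301. All 3 exceeded the spot error but none reached 2-fold. Without scaling between arrays, the same probes differed by -0.70, -0.56 and -0.64. Between Slpi vector and empty vector, they differed by -0.10, 0.04 and 0.06. The probes carried 2 accessions, NM_007778 (row 253) and NM_001113530 (rows 281 and 301), and gave like differences.

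Tnf was seen by 1 of its 2 probes. In row 77, its processed signal was 178 for empty vector, 312 for Mst1r vector and 200.4 for Slpi vector, so that the Mst1r vector array was highest. The log2 difference from empty vector was 1.04 ± 0.205 (2.06-fold) with Mst1r vector and 0.25 ± 0.244 with Slpi vector. A second probe, in row 296 and with the same accession (NM_013693), was at background on every array, at 3.82, 3.82 and 3.36. The difference of Tnf thus rests on 1 probe in the upper rows, and it was below 2-fold without scaling, after scaling to spike-in probes and after normexp background correction.

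The IL-1 group gave little signal apart from Il18. Il1a was dark throughout, with signals between 3.67 and 4.11 (row 193) that were not well above background, and the same held for Il1b in row 22. A second Il1b probe in row 136 exceeded background with empty vector alone, at 26.6, compared with 4.51 and 4.05 on the Mst1r vector and Slpi vector arrays. Empty vector was at least 1.20-fold higher than Mst1r vector and at least 1.52-fold higher than Slpi vector on this probe, with the dim side set to the lowest signal that was well above background on its array. Il18, which is stored as a precursor in many epithelial cells, had 505, 433 and 483 (row 136). After scaling, its differences from empty vector were 0.01 ± 0.157 with either vector, the smallest of all members that exceeded the signal minimum.

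Il15 was moderately higher with Mst1r vector on both of its probes. The signals in row 229 were 243 for empty vector, 335 for Mst1r vector and 243 for Slpi vector. The dimmer probe, in the last of the upper rows, gave 113, 140 and 104.5. The Mst1r vector array was highest on both, and the other arrays lay close together. The log2 difference from empty vector was 0.69 ± 0.205 (1.62-fold) and 0.55 ± 0.244 (1.46-fold) with Mst1r vector, and 0.08 ± 0.244 and -0.03 ± 0.244 with Slpi vector.

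**Figure D3:**
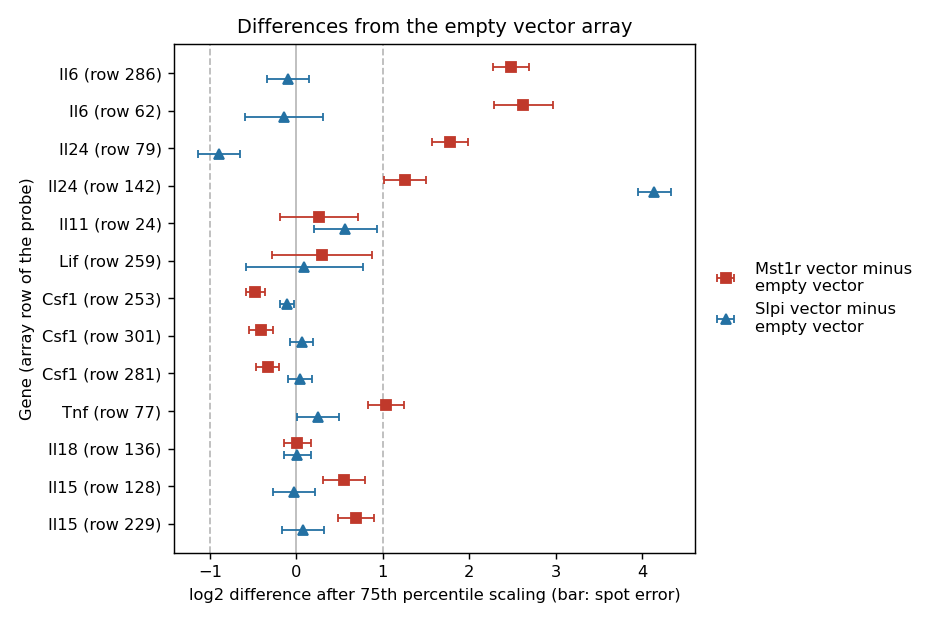
log2 difference from the empty vector array after 75th percentile scaling for the 13 cytokine probes well above background on all arrays. Bars are spot errors, and dashed lines mark a 2-fold difference. Both Il6 probes are between 2.48 and 2.63 with Mst1r vector and near 0 with Slpi vector, and all 3 Csf1 probes lie below 0 with Mst1r vector.

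With the brightest probe of each gene and a signal over 50 on the brighter array, 7 of the 10 members could be counted in each comparison, and Lif, Il1a and Il1b could not. Between Mst1r vector and empty vector, Il6, Il24 and Tnf were at least 2-fold higher (3 genes, against 3.27% of 12063 genes on the array) and 0 members were at least 2-fold lower (against 2.25%). The median log2 difference was 0.69 over the 7 members and -0.05 over all genes counted. Among genes with their brightest probe in the lower rows, 1.62% were at least 2-fold higher, and Il6 and Il24 were the members that passed there. Because the members were listed with these differences in view, nothing is read from their share.

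Between Slpi vector and empty vector, 1 member, Il24 through its probe in row 142, was at least 2-fold higher (against 1.85% of 11976 genes, and 0.384% of genes with their brightest probe in the lower rows). No member was at least 2-fold lower (against 2.09%). The median was 0.08 over the members and 0.01 over all genes. Between Mst1r vector and Slpi vector, Il6 was at least 2-fold higher (against 3.12% of 11949 genes) and Il24 by the same probe at least 2-fold lower (against 1.9%). The comparisons with empty vector share that array, whereas the last comparison did not use it. In each comparison Il24 was counted by its probe in row 142, which is the brighter one through the Slpi vector array alone. On the empty vector and Mst1r vector arrays the probe in row 79 was brighter (141 and 413, against 66.1 and 134). Nothing is read from the counts of Il24 with Slpi vector. Without the signal minimum, Il1b would count as lower than empty vector with both vectors, but the signals of its brighter probe were under 27.

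The genes around these cytokines were examined as lists of ligands, receptors, inhibitors and targets. Of 78 listed genes, 76 had a probe and 60 had their brightest probe well above background on at least 1 array. Between Mst1r vector and empty vector, 8 of 51 genes over the signal minimum reached 2-fold on the higher side and 0 on the lower side (against 3.27% and 2.25% of all genes), with a median log2 difference of 0.07. Of these 8 genes, Il19, Il33 and Zfp36 had their brighter or only probe in the upper rows, and Csf3, Socs1, Socs3, Hpx and Cebpd in the lower rows. Between Slpi vector and empty vector, it was 1 of 48 on the higher side and 0 on the lower side (against 1.85% and 2.09%), with a median of 0.05. Against Slpi vector, Mst1r vector was at least 2-fold higher for 9 of 52 and lower for 1 (against 3.12% and 1.9%). The lists were chosen with earlier results of these data known, so nothing is read from these shares. Il19, Il33 and Hpx also passed the signal minimum through the Mst1r vector array alone, and Crp passed it through the Slpi vector array alone. Between Mst1r vector and Slpi vector, Il20ra and Csf3 likewise passed it through the Mst1r vector array alone.

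Among other ligands, Il19, a close relative of Il24 in the IL-10 family, had 1 bright array. Its probe in row 46 gave 3.95, 140 and 5.62, and its probe in row 361 gave 4.01, 76.5 and 6.40, in the order empty, Mst1r and Slpi vector. Both probes were well above background with Mst1r vector alone, which was at least 8.69-fold (row 46) and at least 4.74-fold (row 361) higher than empty vector. Il10 and Il20 were dark on all arrays. Csf3, the growth factor of granulocytes, had 56.8, 158 and 49.8 (row 230) and was higher with Mst1r vector by 1.70 on the log2 scale, opposite in direction to Csf1 and to the Csf1 receptor ligand Il34 (-0.37, row 55). Il33, an IL-1 relative that acts as an alarmin, was well above background with Mst1r vector alone by its probe in row 29 (8.41, 166 and 3.79) and dark on all arrays by its probe in row 195. Of the remaining IL-6 family ligands, Cntf and Clcf1 gave the highest signals and differed from empty vector by 0.08 and 0.02 with Mst1r vector, while Osm was dark.

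Of 18 listed receptor genes, 15 were well above background on at least 1 array by their brightest probe, and Il18r1, Il18rap and Il2rb on none. In all, 14 were over the signal minimum in the Mst1r vector comparison, and 0 of them differed 2-fold from empty vector with Mst1r vector. Il6ra, the specific IL-6 receptor chain, gave 2740, 2302 and 2864 by its brighter probe (row 282), and Il6st gave 846, 633 and 731 (row 305). The second Il6st probe, in row 75, gave 39.1, 41.3 and 173, so that the Slpi vector array alone was high on it. Tnfrsf1a and Il15ra, the receptor genes with the highest signals, differed by 0.06 and -0.19 with Mst1r vector. Il20ra, a chain of the IL-24 receptor, was seen in row 46 with 48.7, 78.6 and 3.38 and was dark in row 246. On the former, Mst1r vector was at least 5.28-fold and empty vector at least 2.78-fold higher than Slpi vector.

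Of 6 genes over the signal minimum in the list of inhibitors and decoys, 3 (Socs1, Socs3 and Zfp36) exceeded empty vector at least 2-fold on the Mst1r vector array. Socs3, which is induced by STAT3 and blocks gp130 signalling, gave 2267, 6543 and 2147 in the order empty, Mst1r and Slpi vector (row 155), a log2 difference of 1.76 with Mst1r vector. Socs1 had 133.5, 318 and 124 (1.48, row 208). Zfp36, whose product destabilises the mRNA of Tnf and other cytokines, had 235.5, 674 and 237 (1.75, row 2). In all 3 genes the empty vector and Slpi vector arrays lay close together. The other genes of this list over the minimum did not reach 2-fold with either vector, and among them Pias3 and Il18bp differed by -0.29 and -0.66 with Mst1r vector.

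Transcription factors and kinases of the pathways lay close to their empty vector levels. None of the 12 JAK-STAT and NF-kB genes differed 2-fold in any comparison, and the median was 0.02 with Mst1r vector. Rela and Stat5a, with the highest mean signals over the 3 arrays, differed from empty vector by 0.24 and 0.19, and Nfkbia, a target of NF-kB itself, by -0.24. Among genes known as hepatocyte targets of IL-6, Cebpd had 878, 2646 and 787 (row 196) and was higher with Mst1r vector by 1.82 on the log2 scale, and Hpx, a haem-binding acute phase protein, had 39.0, 76.5 and 41.8 (1.20, row 143, but under 2-fold without scaling). Cebpb and Lcn2, with the highest signals of the list, differed by 0.10 and -0.36, and Saa1 and Saa3 differed by 0.44 and 0.31. Crp was well above background on the Slpi vector array alone, at 50.5 (row 12), and was at least 2.82-fold higher than with empty vector. Of the processing enzymes, Casp1, which matures Il1b and Il18, and Adam17, which sheds Tnf, differed by 0.14 and -0.22 with Mst1r vector.

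**Figure D4:**
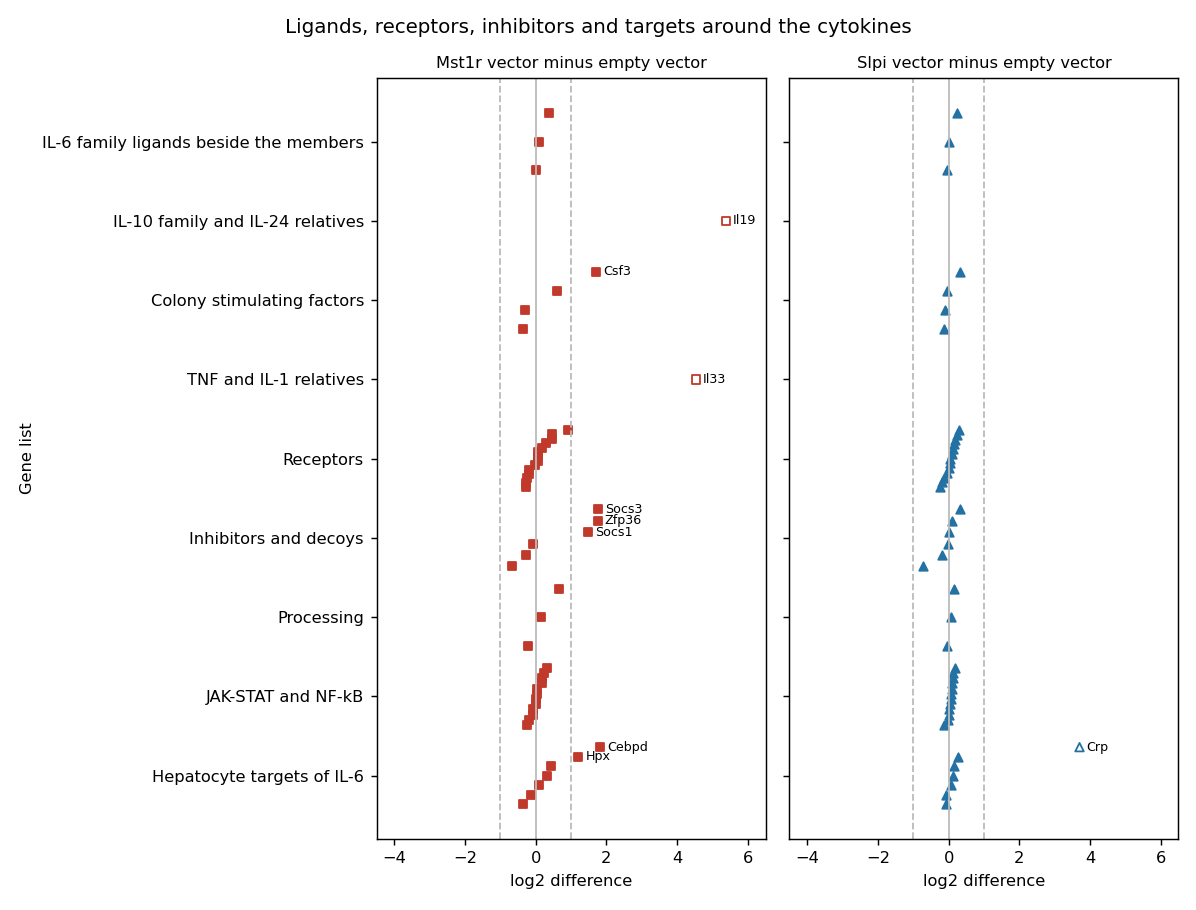
log2 difference from empty vector for the genes of each list with a signal over 50 on the brighter array (brightest probe of a gene), with Mst1r vector in the left panel and Slpi vector in the right. Dashed lines mark 2-fold, open symbols mark genes not well above background on one of the arrays compared, and genes at or beyond 2-fold are named. With Mst1r vector, 8 genes lie beyond 2-fold on the higher side, and with Slpi vector 1 gene does.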

How the data were processed

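Total RNA (100 ng) of 3 transfected Hepa1c1c7 cultures was labelled with Cy3 and hybridised to single-colour Agilent arrays of 62976 spots. The deposited intensity values were those the authors extracted from the scans with Feature Extraction 12.0.3.1 (design build mm9). The processed signal is the spot intensity after background subtraction and spatial detrending, on a linear scale, and the deposited files also held flags. The deposited series table repeats this intensity for each probe and array. Feature Extraction gives low spots a small positive value.

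From these, log2 processed signals of repeated spots were averaged per probe and the 75th percentile of all 56605 non-control probes was subtracted, as the methods name. Probes were named through the RefSeq accession in the files and a RefSeq gene table (GRCm38.p6, for names and promoters), which gave 32994 probes and 22911 genes a symbol. A gene was represented by its brightest probe, the one with the highest mean processed signal over the 3 arrays. It was counted at a 2-fold difference with a processed signal over 50 on the brighter array. The minimum of 50 is that of the methods. Where one side was not well above background, the fold is a bound. Spot errors came from probes printed at least 10 times, control probes included. Their SD was 0.694 (log2) for signals under 3 on the log2 scale, 0.800 from 3 to 4 and 0.057 over 14. The SD rested on 29 pairs of probe and array for signals from 6 to 8, and on 9 from 8 to 10. With 1 array per group no test was made, and precision is limited by the number of arrays. Since the 3 arrays shared 1 slide and 1 scan, the position on the slide and the group cannot be told apart. Around a cytokine probe, dark spots are those under 15 on the other arrays. A control spot counted as dark where the median over the spots of its probe on the same array was under 15. Stray signal is a dark spot over 50. Every probe of the 10 genes was named. Of the lists, genes at least 2-fold apart and the 2 brightest genes of a list were to be named, and a few receptors, inhibitors, targets and markers were named beside them after their values were seen. The members and lists were chosen with earlier results of these data known. Alternatives were other scalings, normexp background correction (offset 50), filters on signal and rows, and other ways to combine probes. The counting step was tested on simulated data. Python 3.11.15, numpy 2.4.6, pandas 2.3.3, scipy 1.17.1, R 4.3.3 and limma 3.58.1 were used. Confidence intervals (95%) of shares are exact Clopper-Pearson intervals and cover counting error only.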

Additional observations from a re-analysis of the deposited data

Results flagged for a closer look

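Control spots that should be dark carried signal in the upper rows of the arrays, outside the gene measurements, and there were more of them than the 0 to 2 spots found in the lower rows. On the empty vector array, 25 of 934 such spots exceeded a processed signal of 50 (2.68%, 95% exact interval 1.74% to 3.93%). On the Mst1r vector array it was 37 of 922 (4.01%, 2.84% to 5.49%), and on the Slpi vector array 26 of 922 (2.82%, 1.85% to 4.1%). The brightest of them had 207, 289 and 481 on the empty vector, Mst1r vector and Slpi vector arrays. On the Mst1r vector array, the brightest was just below Il6 in row 62 (300.9) and Tnf in row 77 (312). Of the members named above, Il6 (row 62), Il24 (row 79), Il11, Tnf, Il1b (row 22) and Il15 (the dimmer probe) had a probe in these rows, and the part of stray signal in their values was not tested. Il6 in row 286 and Il15 in row 229, outside these rows, gave 2.48 and 0.69 for Mst1r vector against empty vector, beside 2.63 and 0.55 for their probes inside them. Il24 gave 1.25 outside these rows and 1.78 inside them, and Tnf gave 1.04 inside them while its probe outside them was at background on all arrays.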

How the results depend on the processing

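With 1 array per group, alternatives show what the processing does to a value, not how far cultures vary. Of the 7 members counted, 3 exceeded empty vector at least 2-fold with Mst1r vector. The count was 1 (Il6) after normexp background correction, 2 (Il6 and Il24) without scaling, with spike-in scaling, with the mean over probes or in the lower rows, and 0 at 10-fold. With no filter on signal, 1 member (Il1b) was lower with Mst1r vector and 1 (Il1b) with Slpi vector than with empty vector. At 10-fold, 1 member (Il24) was higher with Slpi vector than with empty vector, and 0 were higher and 0 lower between Mst1r vector and Slpi vector. Taking the mean over the probes of a gene left 0 members lower in the comparison of Mst1r vector with Slpi vector, and raised the listed genes higher with Slpi vector than with empty vector to 2 (Il6st and Crp). With the second brightest detected probe, chosen after seeing the data, 0 members were higher with Slpi vector than with empty vector, 2 (Il6 and Il24) were higher with Mst1r vector than with Slpi vector and 0 were lower, since this setting takes the Il24 probe in row 79. No called difference of a single probe changed sign under any of the 6 other scalings or corrections. For the scalings this was fixed in advance, since each shifts every probe of a comparison by the same amount, here under 2-fold. The series table holds the same intensities for these probes, so it could not move them. Only normexp could have changed such a sign. Of 42 differences of single probes, 14 moved by more than the spot error under normexp, 11 without scaling, 6 with spike-in scaling and 0 under the other 3. Normexp with its offset draws dim probes together: the Il6 probes gave 2.08 and 1.68 for Mst1r vector against empty vector. Without scaling the median of detected probes was -0.27 for Mst1r vector against empty vector, and with spike-in scaling it was -0.24 for Slpi vector. Differences of Il18 changed sign there. With spike-in scaling, so did the small Slpi vector differences of Csf1 in rows 281 and 301, Il15 in row 229 and Lif. Those of Csf1 in row 253 and of the dimmer Il15 probe kept their sign. No paired analysis was possible because each group held 1 array without a replicate number.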
